A study of Mus musculus with 18 samples.

Results

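Myeloid-derived suppressor cells sorted as high in the surface antigen Ly6G were compared with whole bone marrow in total RNA. The 6 libraries of the comparison, of 18 in the series, were chosen by their labels and not by their values. The 3 libraries named LY6G held total RNA of mouse cells grown from bone marrow for 5 days. These cells were then sorted as high in CD11b, high in Ly6G and intermediate in Ly6C, plated, and collected on the next day after cycloheximide, a drug that stalls ribosomes on mRNA. The 3 libraries named BM held total RNA of unsorted marrow flushed from femurs, with red blood cells lysed. All animals were C57BL/6 of wild-type genotype. LY6G replicates carried the numbers 2, 3 and 6 and BM replicates the numbers 1, 2 and 3, and values below stand in those orders. The labels do not tie a culture to a marrow, and whether 1 marrow library stands for 1 mouse is not stated, so p-values measure the spread between these samples, which may be technical. Culture, sorting, plating and cycloheximide went with the LY6G label, so their parts in any difference cannot be told apart from that of the sorted cell type. Libraries of polysome-bound RNA from the same kinds of cells, and of a second sorted population named LY6C, served as side values.

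Bone marrow is the site where red cells, platelets, B cells and all myeloid cells are made, in a bed of bone-forming and other stromal cells. Myeloid-derived suppressor cells are immature neutrophil-like and monocyte-like cells that accumulate in cancer and chronic inflammation and restrain T cells. Ly6G is the antigen used to mark the neutrophil-like kind in mice, and CD11b, encoded by Itgam, marks myeloid cells in general. The comparison sets 1 sorted myeloid population against the mixed tissue it was grown from.

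The libraries were very unequal in what their counts came from. LY6G libraries held 15148630 to 17038444 counts and BM libraries 19776431 to 26225431. Nuclear protein-coding genes took 71.9% to 89.5% of the counts in LY6G but 0.232% to 0.291% in BM, which left 54944 to 76341 such counts per BM library. Mitochondrial ribosomal RNA took 3.22% to 18.8% of LY6G counts against 57.1% to 65.8% of BM counts, and other ribosomal RNA-like genes 3.72% to 6.32% against 33.9% to 42.6%. Between 13072 and 13832 genes reached 10 counts in LY6G libraries, against 1475 to 2018 in BM libraries. Levels are given in CPM, counts in proportion to a library size scaled by the TMM method of edgeR, so they compare libraries for a gene and have no fixed sum. At this scale 1 CPM was 63.1 to 89.9 counts in LY6G but only 0.472 to 0.611 counts in BM, and a BM value of about 2 CPM is 1 count. Rank correlations between replicates ran from 0.913 to 0.979 in LY6G and from 0.526 to 0.594 in BM over 1568 genes. No library was a copy of another.

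Because of this gap, each gene is given with its BM counts where they are low. A gene with 0 counts in all 3 BM libraries has only a lower bound on its fold, taken against 3 counts over the group, the most that 0 observed counts allow at 95% confidence and 1.91 CPM here. Genes with 1 to 3 counts in a group have the ratio of pooled counts, each scaled by its library sizes, with an exact interval, which covers counting error only. A second scaling, by the sum of nuclear protein-coding counts, moved the LY6G minus BM difference of the median gene down by 0.51 on the log2 scale. For each gene list, counts under it are printed beside the main ones where they differ.

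Cell type markers separated the samples for some lineages and not for others. Over 10 monocyte and macrophage markers the summed level was 881, 887 and 861 CPM in LY6G, against 78.3, 65.5 and 57.9 CPM in BM. Over 10 neutrophil markers it was 1022, 1084 and 590 CPM in LY6G, against 665, 656 and 645 CPM in BM, and the groups overlapped. The sums of 4 megakaryocyte markers, given further below, overlapped as well. Over 5 erythroid markers the sum was 0.0668, 0.0317 and 0.124 CPM in LY6G, against 123, 144 and 231 CPM in BM. Markers of B cells summed to 0.456, 0.174 and 1.57 CPM in LY6G, against 55.1, 65.5 and 45.5 CPM in BM. Stromal and bone markers summed to 1.77, 0.729 and 1.76 CPM in LY6G, against 2723, 6850 and 3709 CPM in BM. The sorted libraries thus held almost no RNA of these red cell, B cell and bone markers. All 3 kinds were present in BM, where Col1a1 and Col1a2 made most of the stromal and bone sum. The erythroid marker Epb42 and the bone marker Bglap were at 0 counts in both groups. The B cell marker Cd79b had 0 BM counts and 0.178, 0.0476 and 0.302 CPM in LY6G, below the BM floor of 1.91 CPM. In such bulk samples, fewer cells of a type and less of an RNA per cell cannot be told apart.

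**Figure D1:**
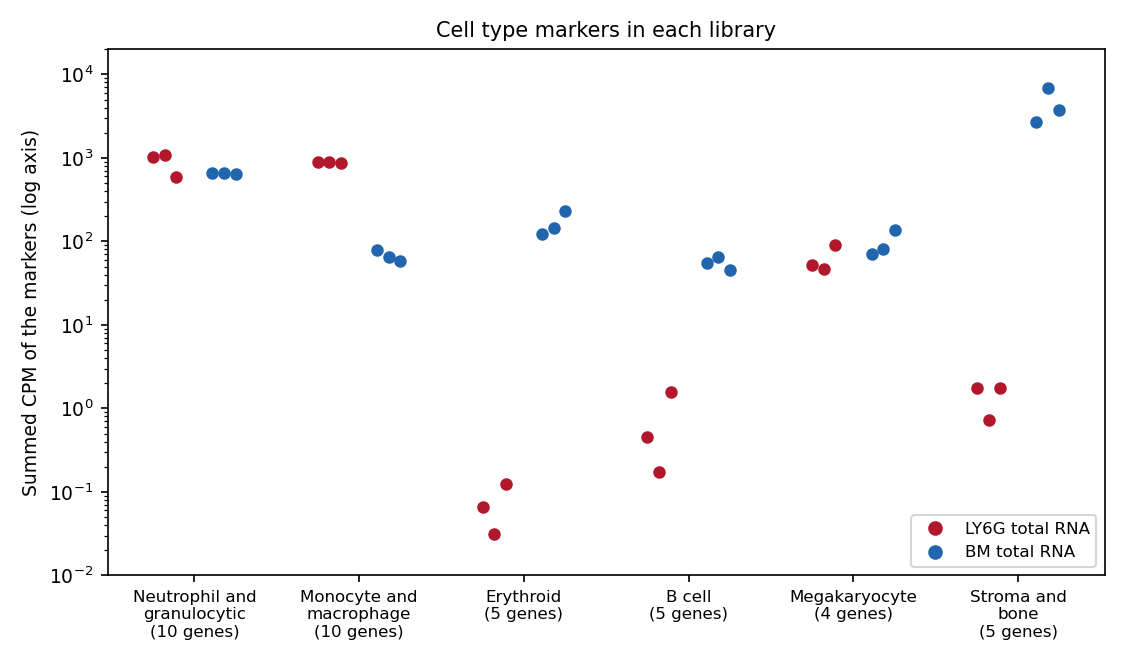
Summed CPM (log axis) of the markers of 6 cell types in each LY6G total library (red, left) and each BM total library (blue, right). Erythroid, B cell and stromal markers sit at or below 1.77 CPM in LY6G and monocyte and macrophage markers sit above BM. The neutrophil and the megakaryocyte markers of the groups overlap.

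The gene of the antigen that gave the cells their name overlapped between the groups. Ly6g had 1.62, 1.73 and 8.73 CPM in LY6G, from 146, 109 and 636 counts, against 0, 1.64 and 4.13 CPM in BM, from 0, 1 and 2 counts. Its log2 difference of 1.07 ± 1.40 (SE) gave an adjusted p of 0.586, and the ratio of pooled counts was 2.06 (95% exact interval 0.703 to 10). Itgam, the gene of CD11b, had 49.1, 61.9 and 46.3 CPM in LY6G and 0, 19.6 and 0 CPM in BM, and rose by 2.85 ± 0.67 (adjusted p = 0.00297). Its 12 BM counts all came from 1 library. Ly6c2 had 56.1, 70 and 48.9 CPM in LY6G against 2.12, 3.27 and 2.07 CPM in BM and rose by 4.52 ± 0.76 (adjusted p = 0.000167). Ly6c1, its near copy on the same chromosome, held 11 counts over LY6G and 2 over BM and was not called, and reads of such copies may be split between them. Itgam and Ly6c2 thus separated the groups and Ly6g mRNA did not. The cells are called LY6G here after their label. For Itgam without BM replicate 2 the lower group kept at most 3 counts.

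Of 14181 genes tested, 3043 were called higher in LY6G (21.5%) and 1331 lower (9.39%), at an adjusted p under 0.05 by the quasi-likelihood test of edgeR. Scaled by nuclear protein-coding counts, 1817 were higher (12.8%) and 1733 lower (12.2%). All 1817 were among the 3043, all 1331 were among the 1733, and 0 genes were called opposite ways. Calls went with the depth of BM. Of 4662 genes with 0 BM counts 18.3% were called higher, and of 327 genes with 100 or more BM counts 66.4% were called lower and 5.2% higher. With the nuclear protein-coding counts of every library thinned to 54944, 724 genes were called higher and 622 lower. The median log2 difference over all genes tested, with genes of 0 BM or 0 LY6G counts at their bound, was -0.17, and this is the value against which the medians of the gene lists below are set. Many genes moved, so a list is read only by how far its share of calls departs from 21.5% and 9.39%.

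**Figure D2:**
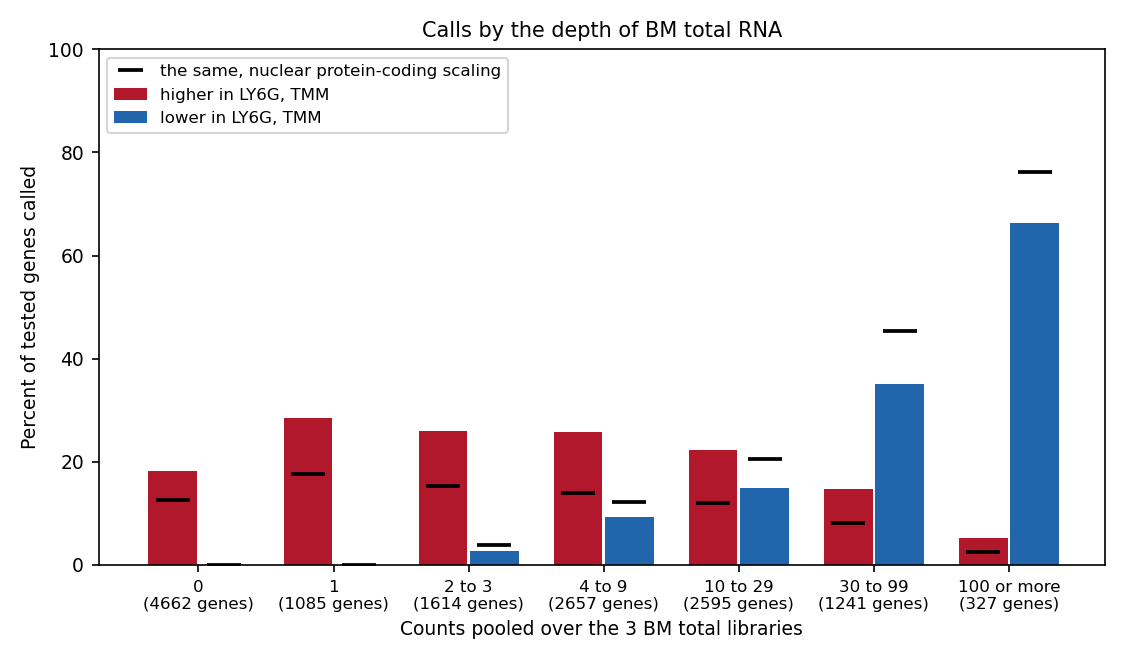
Percent of tested genes called higher (red) or lower (blue) in LY6G total RNA, by the counts pooled over the 3 BM total libraries, with black marks for the nuclear protein-coding scaling. Higher calls are 18.3% of genes with 0 BM counts, reach 28.4% at 1 count and are 5.2% at 100 or more, and lower calls run from 0% to 66.4%.

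The 12 largest rises among genes with at least 10 BM counts were led by a secreted matrix protein and a shared cytokine receptor chain. Prdx1, Klf6, Fos, Cebpb, Jun and Ctsd were also among the 12 and are described with their lists. Thbs1, which encodes thrombospondin-1 (chr2:118111876-118127133 on GRCm38), had 1218, 1419 and 2449 CPM in LY6G against 42.3, 1.64 and 6.2 CPM in BM. It rose 105-fold (log2 6.71 ± 0.99, adjusted p = 6.57e-05). Of its 24 BM counts 20 came from 1 library. Every LY6G library stood above every BM library, which the rule for naming these 12 genes required. Csf2rb (chr15:78325752-78353847), the shared signalling chain of the GM-CSF, IL-3 and IL-5 receptors, had 445, 502 and 569 CPM in LY6G against 6.35, 6.55 and 12.4 CPM in BM. The rise was 60.5-fold (log2 5.92 ± 0.45, adjusted p = 1.51e-08). Its neighbour and near copy Csf2rb2 rose by 4.43 ± 0.66 (adjusted p = 4.9e-05), and how reads were divided between the copies is not known. Cd44, a receptor for hyaluronan, had 156, 126 and 103 CPM in LY6G against 6.35, 6.55 and 6.2 CPM in BM, a log2 rise of 4.33 ± 0.52 (adjusted p = 4.56e-06). Adam8, a membrane metalloprotease of leukocytes, averaged 139 ± 56.6 CPM in LY6G and 6.86 ± 6.3 CPM in BM (SD, n = 3 each). Alas1, the housekeeping enzyme that starts heme synthesis, averaged 129 ± 7.72 CPM in LY6G and 7.41 ± 6.43 CPM in BM. Both rose, by 4.31 ± 0.82 and 4.17 ± 0.51 on the log2 scale, with no overlap between groups, again a condition of naming. In fits that left out 1 library, the log2 difference became 8.77 for Thbs1 without BM replicate 1, 3.72 for Csf2rb2 without BM replicate 2, 3.71 for Adam8 without BM replicate 1 and 5.08 for Alas1 without BM replicate 1.

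Among called genes with 0 counts in every BM library, the largest bounds belonged to a macrophage elastase, a lectin receptor and inflammatory mediators. Mmp12 (chr9:7344381-7369499), the elastase, had 359.7, 427 and 155 CPM in LY6G and was at least 163-fold higher than in BM. Clec4n, which encodes the fungal sensor Dectin-2, had 299, 306 and 212 CPM in LY6G and was at least 142-fold higher. Il1b, the gene of interleukin-1 beta, had 249, 163 and 249 CPM and was at least 115-fold higher. These 3 genes held at least 10265 counts in every LY6G library, so the bounds are set by the depth of BM and not by that of LY6G. Egr1, an immediate early transcription factor, had 296, 201 and 147 CPM in LY6G and Slc7a11, the cystine importer, 176, 167 and 269 CPM, with bounds of 112-fold and 106-fold. The neutrophil attractant Cxcl2 was at least 68.6-fold, the cell cycle inhibitor Cdkn1a at least 67.2-fold and the stress gene Ier3 at least 63-fold higher. Under the protein-coding scaling these bounds ran from 44.7-fold for Ier3 to 115-fold for Mmp12. Polysomal BM libraries held 0 counts of Mmp12, 15 of Il1b and 23 of Slc7a11, and all 8 genes were called higher there too.

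**Figure D3:**
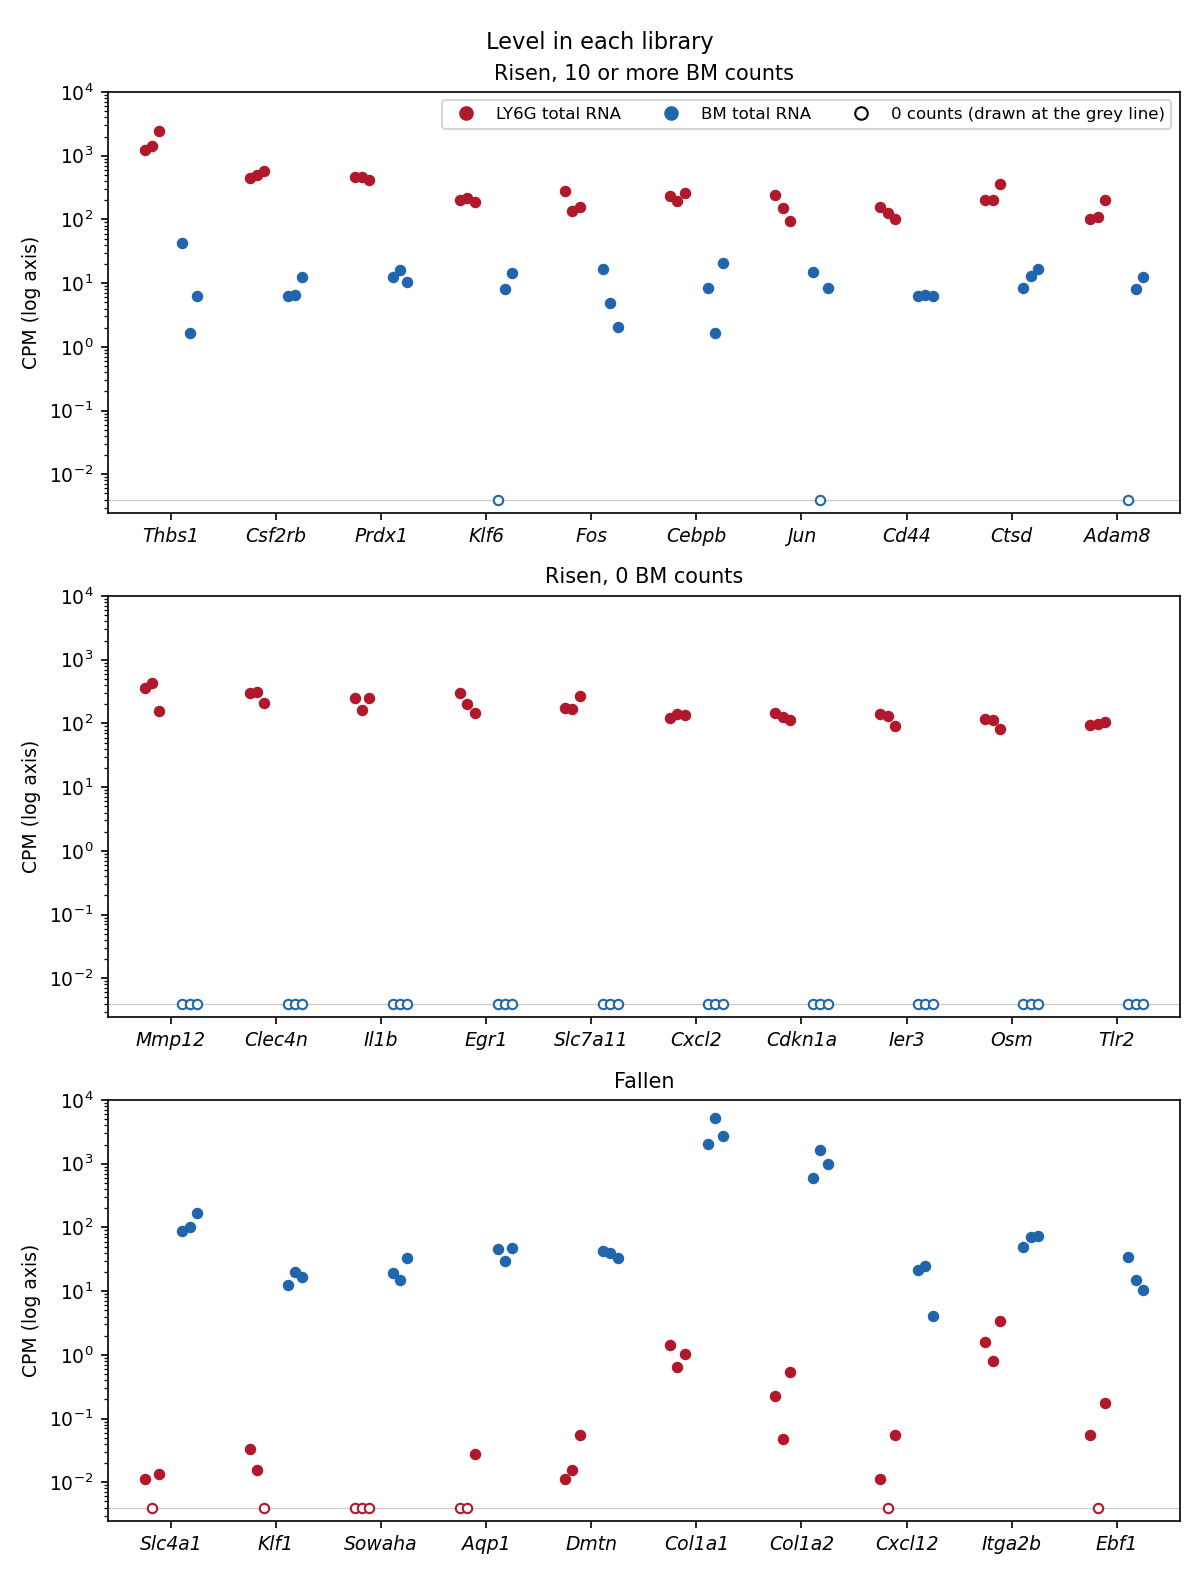
CPM (log axis) of 30 named genes in each LY6G total library (red, left) and each BM total library (blue, right), with open circles at the grey line for 0 counts. Every LY6G library lies above every BM library for the risen genes and below every BM library for the fallen ones. Genes named by size or adjusted p had to show this separation.

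Receptors of colony-stimulating factors tell a myeloid cell to survive and divide, and receptors of other cytokines are listed with them here. Of 24 listed, 23 could be tested, 14 rose and 1 fell (11 and 3 under the protein-coding scaling), with a median log2 difference of 1.98. Csf1r, the receptor that macrophages need to survive, had 240.1, 232 and 259 CPM in LY6G against 2.12, 4.91 and 4.13 CPM in BM. It rose 64-fold (log2 6.0 ± 0.56, adjusted p = 2.05e-07), although only 6 BM counts stand behind that fold. Il10ra, the ligand-binding chain of the IL-10 receptor, rose by 4.84 ± 0.53 and Il4ra, the IL-4 receptor chain, by 3.55 ± 0.39. Csf3r, the G-CSF receptor of neutrophils, had 104, 21.7 and 62.2 CPM in LY6G against 2.12, 6.55 and 4.13 CPM in BM. Its rise of 3.83 ± 1.18 (adjusted p = 0.0222) was lost under the protein-coding scaling (adjusted p = 0.0695) and was lost without LY6G replicate 2 or BM replicate 1, 2 or 3 (adjusted p 0.0601 to 0.0891). The 1 receptor that fell was Epor, the erythropoietin receptor, with 0, 1 and 1 counts in LY6G against 5, 9 and 1 in BM (adjusted p = 8.23e-07), a ratio of BM over LY6G of 1080.0 (95% exact interval 251 to 9737). The macrophage receptor gene Csf1r was thus high in LY6G and the red cell receptor gene Epor was high in BM. The lower group of Il10ra without BM replicate 3 held at most 3 counts.

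About as many macrophage marker genes rose as did not pass the test. Of 27 macrophage identity genes 25 could be tested, 13 rose and 1 fell (12 and 2 under the protein-coding scaling), with a median of 2.90. Sirpa, an inhibitory receptor that reads CD47 on other cells, had 243, 233 and 269 CPM in LY6G against 19.1, 24.6 and 24.8 CPM in BM and rose by 3.44 ± 0.34 (adjusted p = 4.81e-07). Lyz2, the lysozyme of myeloid cells, had 1120.2, 1261 and 801 CPM in LY6G against 69.9, 57.3 and 53.7 CPM in BM and rose by 4.14 ± 0.43 (adjusted p = 9.47e-07). Mpeg1, which encodes the pore protein perforin-2, rose by 3.99 ± 0.58, and Adgre1, the gene of F4/80, averaged 126 ± 43.5 CPM in LY6G and 8.18 ± 3.53 CPM in BM. The 1 gene that fell was Cd163, the hemoglobin scavenger receptor of resident tissue macrophages. It had 0.0779, 0.127 and 0.206 CPM in LY6G against 12.7, 3.27 and 33.1 CPM in BM, a log2 change of -6.85 ± 1.03 (adjusted p = 5.53e-05). The complement gene C1qa, another marker of resident macrophages, had 1.36, 2.05 and 4.09 CPM in LY6G and 12.7, 8.18 and 2.07 CPM in BM, was not called (adjusted p = 0.259), and its groups overlapped. The log2 difference moved most when 1 library was left out, to 4.88 for Mpeg1 without BM replicate 1 and -5.87 for Cd163 without BM replicate 3.

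Receptors that bind antibody, complement and microbial sugar rose nearly throughout. Of 11 Fc gamma and complement receptor genes 10 rose and 0 fell (9 and 0 under the protein-coding scaling), with a median of 3.36. Fcgr2b, the inhibitory IgG receptor, had 70.5, 70.5 and 98.5 CPM in LY6G against 2.12, 6.55 and 4.13 CPM in BM and rose by 4.17 ± 0.60 (adjusted p = 3.32e-05). Fcgr1, the high-affinity IgG receptor, had 0 BM counts and was at least 16.1-fold higher, and Itgax, the CD11c chain of complement receptor 4, at least 31.6-fold higher. The shared beta-2 chain Itgb2 was well covered in BM, with 16, 50 and 36 counts. It stood at 249.5, 244 and 194 CPM in LY6G against 33.9, 81.8 and 74.4 CPM in BM (log2 1.85 ± 0.35, adjusted p = 0.000497). Of 14 myeloid C-type lectin receptor genes 12 could be tested, 10 rose and 0 fell (8 and 0 under the protein-coding scaling). The adjacent genes Clec4d and Clec4e, whose products sense mycobacterial lipids, were at least 40.7-fold and 30.5-fold higher. Clec7a, which encodes the beta-glucan sensor Dectin-1, had 91.1, 75 and 72.3 CPM in LY6G and 1 count over all of BM, a pooled ratio of 126 (95% exact interval 22.6 to 4985).

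Toll-like receptors and their adaptors, which sense bacterial and viral products, rose in most cases. Of 22 genes 17 rose and 0 fell (11 higher without BM replicate 1 and 10 without BM replicate 2), with 11 higher under the protein-coding scaling and a median of 2.14. Tlr2, the sensor of bacterial lipoproteins, had 92.9, 99 and 105 CPM in LY6G, 0 BM counts, and a bound of 51.4-fold. Tlr4, the sensor of lipopolysaccharide, had 40, 46.9 and 64.6 CPM and a bound of 26-fold. Unc93b1, which carries the nucleic acid sensors to endosomes, had 84.9, 83.5 and 104 CPM in LY6G against 16.9, 26.2 and 12.4 CPM in BM and rose by 2.27 ± 0.35 (adjusted p = 7.1e-05). Cd14, the co-receptor of lipopolysaccharide, had 99.5, 98.1 and 153 CPM in LY6G against 0, 4.91 and 4.13 CPM in BM and rose by 5.21 ± 1.01 (adjusted p = 0.000879). Among chemokine receptors 5 of 10 rose and 0 fell (4 and 0 under the protein-coding scaling, and 3 higher without BM replicate 1). Ccr1, a receptor of inflammatory CC chemokines, had 0 BM counts and a bound of 36.6-fold. Ccr2, which draws monocytes out of marrow, varied widely within LY6G, at 44.4, 96.9 and 7.91 CPM, against 0, 0 and 2.07 CPM in BM, a pooled ratio of 74.1 (95% exact interval 13.3 to 2929), and its call was lost without BM replicate 1 or 2 (adjusted p 0.0578 to 0.0732). In fits that left out 1 library, the log2 difference became 4.61 for Cd14 without BM replicate 1.

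Many inflammatory cytokine genes were higher in LY6G, most of them without a single count in BM. Of 31 listed cytokines and chemokines 29 could be tested, 18 rose and 0 fell (17 higher under the protein-coding scaling), and 23 of the 29 had 0 BM counts. The median with such genes at their bound was 3.99. The chemokine gene Ccl6 had 201, 205 and 192 CPM in LY6G and 1 BM count, a pooled ratio of 312 (95% exact interval 56 to 12320.0). Il1rn, the natural antagonist of interleukin-1, had 138, 120.4 and 173 CPM in LY6G and 1 BM count, a ratio of 226 (95% exact interval 40.6 to 8939). Osm, the gene of oncostatin M, had 117, 115 and 82.2 CPM in LY6G, 0 BM counts, and a bound of 54.7-fold. The agonist Il1b and the antagonist Il1rn of the same receptor were thus both high in LY6G, and Il1r2, the decoy receptor, had 59.4, 55.1 and 28.6 CPM in LY6G against 4.23, 1.64 and 0 CPM in BM, a ratio of 25.2 (95% exact interval 8.62 to 122).

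The transcription factor NF-kB drives many of these genes and is switched off again by proteins it induces. Of 21 genes of NF-kB and its feedback 20 rose and 0 fell (18 under the protein-coding scaling), a share of 95.2% against 21.5% of all genes, with a median of 4.02. Tnfaip3, which encodes the brake A20, had 65.9, 70.9 and 67.7 CPM in LY6G and 3 BM counts, a pooled ratio of 35.5 (95% exact interval 12.1 to 172). Nfkbiz, a nuclear co-regulator, had 102, 96.8 and 111 CPM in LY6G against 0, 11.5 and 0 CPM in BM and rose by 4.58 ± 0.65 (adjusted p = 2.7e-05). Birc3, which encodes the ubiquitin ligase cIAP2, was at least 28-fold higher. The subunit gene Rela itself had 23.6, 19 and 25.9 CPM in LY6G and 1 BM count, a ratio of 36.1 (95% exact interval 6.48 to 1427). The 1 gene not called was Bcl3, with 4.89, 3.52 and 7.55 CPM in LY6G and 0, 0 and 4.13 CPM in BM. The lower group of Nfkbiz without BM replicate 2 held at most 3 counts.

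Immediate early genes, which respond within minutes to growth factors and stress, mostly rose. Of 28 listed 26 could be tested, 21 rose and 1 fell (19 and 2 under the protein-coding scaling), with a median of 3.88. Fos and Jun encode the partners of the AP-1 factor. Fos had 275, 134 and 158 CPM in LY6G against 16.9, 4.91 and 2.07 CPM in BM and rose by 4.6 ± 0.63 (adjusted p = 1.79e-05). Jun had 243, 152 and 95 CPM in LY6G against 14.8, 0 and 8.26 CPM in BM and rose by 4.49 ± 0.70 (adjusted p = 7.51e-05). Neither gene overlapped between groups, which the naming rule required, and both varied over 2-fold among LY6G libraries. Klf6 rose by 4.73 ± 0.54, Fosl2 by 2.74 ± 0.35, and Zfp36, whose product destroys cytokine mRNAs, by 4.39 ± 0.56. Dusp2, a nuclear phosphatase of MAP kinases, went the other way, with 13.6, 4.55 and 5.48 CPM in LY6G against 25.4, 39.3 and 35.1 CPM in BM (log2 -2.08 ± 0.68, adjusted p = 0.0253). The Dusp2 call was lost without LY6G replicate 3 or 6 or BM replicate 2 or 3 (adjusted p 0.065 to 0.0955). Its relative Dusp1 had 208, 127 and 106 CPM in LY6G against 12.7, 1.64 and 0 CPM in BM and rose by 5.01 ± 0.73 (adjusted p = 4.29e-05). The cyclic AMP response element TGACGTCA, searched on both strands in the 250 bases before and 50 after the start of transcription, stood in 4 of 21 promoters of this list (19%) and in 3.66% of 9809 promoters of tested genes. The AP-1 site TGANTCA stood in 1 of the 21 (4.76%) and in 6.42% of all. The Dusp1 match is shown as the example in a gene that rose. It lies 135 bases before its start and is in capitals in a stretch of the minus strand at chr17:26508568-26508655, from RefSeq on GRCm38.p6, the source and build of all stretches here. With 1 library left out, the log2 difference was 5.65 for Fos without BM replicate 1, 5.39 for Jun without BM replicate 1, 5.43 for Klf6 without BM replicate 3 and -2.71 for Dusp2 without LY6G replicate 2. No more than 3 counts remained in the lower group for Dusp1 without BM replicate 1.
Dusp1: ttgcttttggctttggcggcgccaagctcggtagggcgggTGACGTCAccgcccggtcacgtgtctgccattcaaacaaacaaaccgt

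The genes by which these cells are known to suppress T cells were mixed. Of 30 listed 26 could be tested, 16 rose and 1 fell (14 and 1 under the protein-coding scaling), with a median of 2.64. Arg1, the arginase that starves T cells of arginine, had 15.1, 10.6 and 206 CPM in LY6G and 0 counts in BM. It was not called (adjusted p = 0.306), and LY6G replicate 6 held over 10 times the level of the others. Nos2, the inducible nitric oxide synthase, showed the same split, with 1.1, 1.41 and 26.3 CPM in LY6G, 0 counts in BM and an adjusted p of 0.612. Cebpb, a transcription factor needed for suppressor cells to form, had 234, 193 and 263 CPM in LY6G against 8.47, 1.64 and 20.7 CPM in BM and rose by 4.54 ± 0.51 (adjusted p = 1.95e-06). Cybb and Cyba encode the membrane chains of the NADPH oxidase, which makes superoxide. Cybb had 241, 259.6 and 252 CPM in LY6G against 12.7, 37.6 and 31 CPM in BM and rose by 3.19 ± 0.36 (adjusted p = 1.95e-06). Cyba rose by 2.73 ± 0.39 (adjusted p = 2.87e-05). Cd274, the gene of the checkpoint ligand PD-L1, had 68.8, 48.2 and 152 CPM in LY6G, 0 BM counts, and a bound of 46.8-fold. Ptgs2, the cyclooxygenase that makes prostaglandin E2, had 66.6, 33.7 and 68.4 CPM in LY6G and a bound of 29.4-fold. The 1 gene that fell was Vsir, the gene of the checkpoint protein VISTA, with 101, 88.6 and 104 CPM in LY6G against 165, 214 and 188 CPM in BM (log2 -0.95 ± 0.28, adjusted p = 0.0128), and its call was lost without LY6G replicate 3 (adjusted p = 0.0589). The genes of the oxidase, PD-L1 and cyclooxygenase were therefore high in every LY6G library, while those of the arginine enzymes were high in replicate 6. The log2 difference moved most when 1 library was left out, to 5.53 for Cebpb without BM replicate 3.

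Lysosomes digest what a phagocyte takes up, and most of their genes rose. Of 42 lysosome genes, all tested, 36 rose and 0 fell (30 under the protein-coding scaling), a share of 85.7%, with a median of 2.68. Ctsd, the aspartic protease cathepsin D, had 199, 202 and 361 CPM in LY6G against 8.47, 13.1 and 16.5 CPM in BM and rose by 4.32 ± 0.59 (adjusted p = 1.81e-05). Ctsc, which encodes the cathepsin that activates serine proteases of granules, had 239.9, 364 and 224 CPM in LY6G against 0, 4.91 and 2.07 CPM in BM and rose by 6.78 ± 0.60 (adjusted p = 1.09e-07). Atp6v1b2, a subunit of the proton pump, rose by 2.69 ± 0.34 and Grn, progranulin, by 3.19 ± 0.41, each with 29 BM counts. Every LY6G library stood above every BM library for 38 of the 42 genes, against 7680 of all 14181 tested. Ctsa, the lysosomal carboxypeptidase, averaged 42.7 ± 8.64 CPM in LY6G and 5.22 ± 6.42 CPM in BM and rose by 3.05 ± 0.61. Lysosome genes are known to share the CLEAR element, and its palindrome TCACGTGA stood in 7 of 32 lysosome promoters (21.9%) and in 2.24% of all 9809. The matches of Ctsd, 91 bases before its start on the minus strand at chr7:142387879-142387966, and of Ctsa, 5 bases before its start on the plus strand at chr2:164833720-164833772, are in capitals and shown as 2 of the 7. At most 3 counts were left in the lower group for Ctsc without BM replicate 2 and Ctsa without BM replicate 3.
Ctsd: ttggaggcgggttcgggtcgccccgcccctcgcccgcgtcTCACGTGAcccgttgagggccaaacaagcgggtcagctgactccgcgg
Ctsa: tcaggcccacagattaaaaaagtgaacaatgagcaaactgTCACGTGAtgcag

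Most lipid-handling genes of foam cells rose. Of 18 listed 17 could be tested and 12 rose, with 0 lower (1 lower under the protein-coding scaling) and a median of 3.28. Lpl, the lipoprotein lipase, had 295, 366 and 98.2 CPM in LY6G and 2 BM counts, a pooled ratio of 197 (95% exact interval 54.5 to 1627). Lipa, the acid lipase of the lysosome, and Gpnmb, a glycoprotein of lipid-laden macrophages, had 0 BM counts and bounds of 36.1-fold and 52.2-fold. Abcg1, which exports cholesterol, had 47.2, 51.1 and 45.3 CPM in LY6G and 2 BM counts, a ratio of 37.4 (95% exact interval 10.3 to 308). Apoe, the lipid carrier of resident macrophages, was on the other side, with 0.879, 0.824 and 4.09 CPM in LY6G and 6.35, 18 and 35.1 CPM in BM, but did not pass the test (adjusted p = 0.107). In the cholesterol synthesis list 9 of 24 rose and 0 fell (5 under the protein-coding scaling, 5 higher without BM replicate 1 and 4 without BM replicate 2).

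The transcription factor NRF2 turns on enzymes that remove oxidants, and 17 of its 21 listed targets rose with 0 lower (9 higher without BM replicate 2 and 11 without BM replicate 3). Under the protein-coding scaling 11 rose, and the median was 1.97. Prdx1, a peroxiredoxin, had 464, 464 and 418 CPM in LY6G against 12.7, 16.4 and 10.3 CPM in BM and rose 33.9-fold (log2 5.08 ± 0.74, adjusted p = 4.92e-05). Txnrd1, the thioredoxin reductase, had 142, 115 and 115 CPM in LY6G against 19.1, 4.91 and 14.5 CPM in BM and rose by 3.32 ± 0.40 (adjusted p = 4.2e-06). Srxn1, which repairs oxidised peroxiredoxins, had 123, 101 and 126 CPM in LY6G, 0 BM counts, and a bound of 61-fold. Hmox1, the heme oxygenase, had 95.6, 76.8 and 143 CPM in LY6G against 36, 24.6 and 10.3 CPM in BM and missed the threshold (adjusted p = 0.0572), although the groups did not overlap. The antioxidant response element TGACNNNGC stood in 8 of 18 promoters of the list (44.4%) and in 17.1% of all. The match of Prdx1 lies 124 bases before its start, on the plus strand at chr4:116685426-116685514, and also contains an AP-1 site. That of Txnrd1 lies 83 bases before its start, on the plus strand at chr10:82859074-82859162. Both are in capitals and read on the opposite strand.
Prdx1: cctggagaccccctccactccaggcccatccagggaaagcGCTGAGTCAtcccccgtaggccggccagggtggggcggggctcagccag
Txnrd1: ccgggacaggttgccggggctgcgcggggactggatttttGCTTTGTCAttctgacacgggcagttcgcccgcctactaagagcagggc

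Genes of iron storage rose. Of 19 iron genes 8 rose and 2 fell (7 and 2 under the protein-coding scaling). Ferritin stores iron in a shell of light and heavy chains. Its light chain gene Ftl1 had 773, 692 and 575 CPM in LY6G against 50.8, 60.6 and 37.2 CPM in BM and rose by 3.77 ± 0.52 (adjusted p = 1.88e-05). The heavy chain gene Fth1 had 684, 649.7 and 578 CPM in LY6G against 29.6, 42.6 and 43.4 CPM in BM and rose by 4.04 ± 0.65 (adjusted p = 0.000108). Ferritin genes have many processed copies in the genome, which could share their reads. Lcn2, a neutrophil protein that withholds iron from bacteria, rose by 3.38 ± 0.56, and Slc48a1, a heme transporter of lysosomes, by 3.42 ± 0.68. The iron genes that fell were Cd163 and Steap3, a ferrireductase of red cell precursors, at 2.39 ± 0.713 CPM in LY6G and 8.43 ± 3.44 CPM in BM, whose call was lost without BM replicate 3 (adjusted p = 0.0645). No more than 3 counts remained in the lower group for Slc48a1 without BM replicate 2.

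Matrix proteases, which let leukocytes cross tissue, rose in part. Of 12 metalloproteinase and inhibitor genes tested 5 rose and 0 fell (5 and 2 under the protein-coding scaling), namely Mmp8, Mmp12, Mmp14, Mmp19 and Adam8. Mmp14, a membrane-bound collagenase, had 34.1, 38.4 and 48.5 CPM in LY6G against 12.7, 8.18 and 6.2 CPM in BM and rose by 2.17 ± 0.67 (adjusted p = 0.0181), a call that was lost without BM replicate 2 or 3 (adjusted p 0.0884 to 0.0917). Mmp19 had 35.3, 50.3 and 26 CPM in LY6G, 0 BM counts, and a bound of 19.1-fold.

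Genes of glycolysis and hypoxia rose in part. Of 27 tested 14 rose and 1 fell (13 and 1 under the protein-coding scaling), with a median of 1.74. Eno1, an enolase, had 246, 243 and 250.3 CPM in LY6G against 23.3, 32.7 and 12.4 CPM in BM and rose by 3.42 ± 0.47 (adjusted p = 2.08e-05). Aldoa, an aldolase, rose by 2.75 ± 0.41 and Pfkp, a phosphofructokinase, by 3.42 ± 0.58. The genes of the glucose transporters went opposite ways. Slc2a1, the gene of GLUT1, had 65.2, 63.9 and 72.3 CPM in LY6G against 2.12, 3.27 and 2.07 CPM in BM and rose by 4.72 ± 0.83 (adjusted p = 0.000288). Slc2a3, the gene of GLUT3, had 3.88, 6.83 and 5.64 CPM in LY6G against 80.5, 99.8 and 70.2 CPM in BM, a log2 change of -3.94 ± 0.66 (adjusted p = 0.000204). The log2 difference moved most when 1 library was left out, to 2.80 for Pfkp without BM replicate 3.

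Of 21 genes of the unfolded protein response, which adjusts the endoplasmic reticulum to its load, 12 rose and 2 fell (7 and 2 under the protein-coding scaling). Edem1, which sends misfolded proteins to destruction, had 105, 132 and 108 CPM in LY6G against 12.7, 24.6 and 8.26 CPM in BM and rose by 2.88 ± 0.37 (adjusted p = 1.05e-05). The disulfide isomerase genes Pdia6 and Pdia4 rose by 3.48 ± 0.58 and 2.72 ± 0.58. Eif2ak3, which encodes the stress sensor PERK, averaged 10.1 ± 0.383 CPM in LY6G and 22.4 ± 18.3 CPM in BM and fell by 1.13 ± 0.40 on the log2 scale (adjusted p = 0.0398), a call that was lost without LY6G replicate 2, 3 or 6 or BM replicate 3 (adjusted p 0.0813 to 0.634). The ATF4 list, the amino acid branch of the stress response, gave 9 higher and 1 lower of 29 (4 and 2 under the protein-coding scaling, and 4 higher without BM replicate 1), with a median of 0.33. Atf4 itself had 75.6, 66.3 and 68 CPM in LY6G against 19.1, 26.2 and 6.2 CPM in BM and rose by 2.0 ± 0.41 (adjusted p = 0.00103). Pck2, a mitochondrial enzyme of phosphoenolpyruvate synthesis, had 3.23, 5.01 and 2.69 CPM in LY6G against 31.8, 34.4 and 18.6 CPM in BM, a log2 change of -2.96 ± 0.53 (adjusted p = 0.000273). Heat shock chaperone genes gave 4 higher and 0 lower of 14 (3 and 1 under the protein-coding scaling, and 2 higher without BM replicate 1, 2 without BM replicate 2 and 2 without BM replicate 3), among them Hspa4 (log2 2.99 ± 0.48). Leaving out 1 library gave a log2 difference of 3.73 for Pdia4 without BM replicate 3 and -0.31 for Eif2ak3 without BM replicate 3. For Pdia6 without BM replicate 3 and Hspa4 without BM replicate 2 the lower group kept at most 3 counts.

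Interferon-stimulated genes defend against viruses. Of 31 tested 15 rose and 0 fell (14 under the protein-coding scaling, 9 higher without BM replicate 2), with a median of 2.94. Trim30a, a restrictor of inflammasome and NF-kB signalling, had 32.3, 46.6 and 70.9 CPM in LY6G and 1 BM count, a pooled ratio of 76.4 (95% exact interval 13.7 to 3019). Eif2ak2, the RNA-activated kinase PKR, had 18, 22.4 and 38 CPM in LY6G and 1 BM count, a ratio of 40.2 (95% exact interval 7.21 to 1588). Oas2, an enzyme of the RNase L pathway, had 36.5, 38.7 and 174 CPM in LY6G and 2 BM counts, a ratio of 63.8 (95% exact interval 17.7 to 527). LY6G replicate 6 was the highest of its group for each of these 3 genes. The interferon-stimulated response element GAAANNGAA stood in 15 of 23 promoters of the list (65.2%) and in 8.95% of all. The match of Trim30a lies 26 bases before its start on the minus strand at chr7:104465194-104465268, in capitals and read on the opposite strand.
Trim30a: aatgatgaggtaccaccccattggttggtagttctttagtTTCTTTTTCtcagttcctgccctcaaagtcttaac

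Genes of antigen presentation rose in part. Of 17 class II and dendritic cell genes 6 rose and 1 fell (10 higher without LY6G replicate 6). The gene that fell was Zbtb46, a dendritic cell transcription factor, at 1.01 ± 0.547 CPM in LY6G and 4.97 ± 1.37 CPM in BM, whose call was lost without LY6G replicate 2 or 6 or BM replicate 1, 2 or 3 (adjusted p 0.065 to 0.187). Cd74, the invariant chain, had 149, 249.9 and 55 CPM in LY6G against 14.8, 9.82 and 6.2 CPM in BM and rose by 3.89 ± 0.64 (adjusted p = 0.000128). Cd80, a costimulator, had 0 BM counts and a bound of 5.43-fold. Of 11 class I genes 2 rose and 0 fell, Psmb8 and the trimming enzyme Erap1, which is 18.2% and close to the 21.5% of all genes. Under the protein-coding scaling 1 rose and 1 fell. Psmb8, a subunit of the immunoproteasome, had 17.8, 21.4 and 26.7 CPM in LY6G and 1 BM count, a ratio of 34 (95% exact interval 6.1 to 1343). Erap1 had 17.8, 19.6 and 13.6 CPM in LY6G against 4.23, 0 and 10.3 CPM in BM, and its call was lost under the protein-coding scaling (adjusted p = 0.147) and was lost without LY6G replicate 3 or BM replicate 1 or 2 (adjusted p 0.0538 to 0.175).

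Among 25 myeloid transcription factor genes 12 rose and 1 fell (11 and 1 under the protein-coding scaling). Runx1, needed for blood formation, had 65.6, 65 and 63.3 CPM in LY6G and 3 BM counts, a pooled ratio of 33.8 (95% exact interval 11.6 to 164). Bhlhe40 rose by 4.46 ± 0.60 and Irf5, which drives inflammatory cytokine genes, by 4.52 ± 0.66. The factor that fell was Cebpa, which starts the granulocyte line. It had 31.7, 25.5 and 20.5 CPM in LY6G against 23.3, 131 and 88.8 CPM in BM, and the groups overlapped. Its log2 change was -1.66 ± 0.47 (adjusted p = 0.0108), a call that was lost without BM replicate 2 (adjusted p = 0.102) and by limma. The paralogs Cebpb and Cebpa were therefore called in opposite directions, with overlapping groups for Cebpa. Omitting a single library gave log2 differences of 3.93 for Irf5 without BM replicate 1. Counts of the lower group came to 3 or less for Bhlhe40 without BM replicate 1.

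Neutrophil genes were mixed, and those listed with the earliest granules are given first. Primary granules are filled first, and of 10 genes listed with them 1 rose, 2 fell and 7 were not called. The 10 include the transcription factor genes Gfi1 and Cebpe. Mpo, myeloperoxidase, had 5.02, 6.09 and 1.59 CPM in LY6G against 48.7, 78.6 and 47.5 CPM in BM, a log2 change of -3.79 ± 1.31 (adjusted p = 0.0398) that was lost without LY6G replicate 2, 3 or 6 or BM replicate 1, 2 or 3 (adjusted p 0.0508 to 0.122). Fcnb, a ficolin, had 2.82, 4.69 and 1.28 CPM in LY6G against 27.5, 31.1 and 43.4 CPM in BM, a change of -3.54 ± 0.78 (adjusted p = 0.00215). The 1 that rose was Igsf6, which encodes an immunoglobulin-like receptor and not a granule protein. It had 29.2, 20.6 and 38.6 CPM in LY6G and 2 BM counts, a ratio of 23.4 (95% exact interval 6.47 to 193). Of 29 genes of maturation and later granules 28 could be tested, 11 rose and 1 fell (9 and 2 under the protein-coding scaling), with a median of 1.34. Mmp8 (chr9:7558456-7568485), the neutrophil collagenase, had 221, 152 and 129.8 CPM in LY6G against 2.12, 3.27 and 2.07 CPM in BM and rose 66-fold on 4 BM counts (adjusted p = 2.76e-06). Hp, haptoglobin, rose by 2.39 ± 0.35 and the formyl peptide receptor gene Fpr2 by 3.33 ± 0.53. Retnlg, a resistin-like protein of mature neutrophils, had 1.62, 1.09 and 5.05 CPM in LY6G against 10.6, 14.7 and 10.3 CPM in BM and fell by 2.21 ± 0.76 (adjusted p = 0.0329), which was lost without LY6G replicate 2 or 3 or BM replicate 1, 2 or 3 (adjusted p 0.0596 to 0.141). The secondary granule genes Ltf and Camp were not called. Ltf had 96.2, 174 and 38.8 CPM in LY6G and 161, 142 and 254 CPM in BM, and Camp 18.6, 32.2 and 8.43 CPM in LY6G and 72, 60.6 and 37.2 CPM in BM. The genes of calprotectin, the main cytosolic protein of neutrophils, gave 1 call. S100a8 had 247, 264 and 122 CPM in LY6G against 31.8, 55.6 and 18.6 CPM in BM and rose by 2.56 ± 0.58 (adjusted p = 0.00212), while S100a9 had 227, 297 and 164 CPM in LY6G and 269, 236 and 209 CPM in BM and was not called (adjusted p = 0.945). Whether their changes differ was not tested. With 1 library left out, the log2 difference was -3.12 for Retnlg without LY6G replicate 6. At most 3 counts were left in the lower group for Fpr2 without BM replicate 2.

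**Figure D4:**
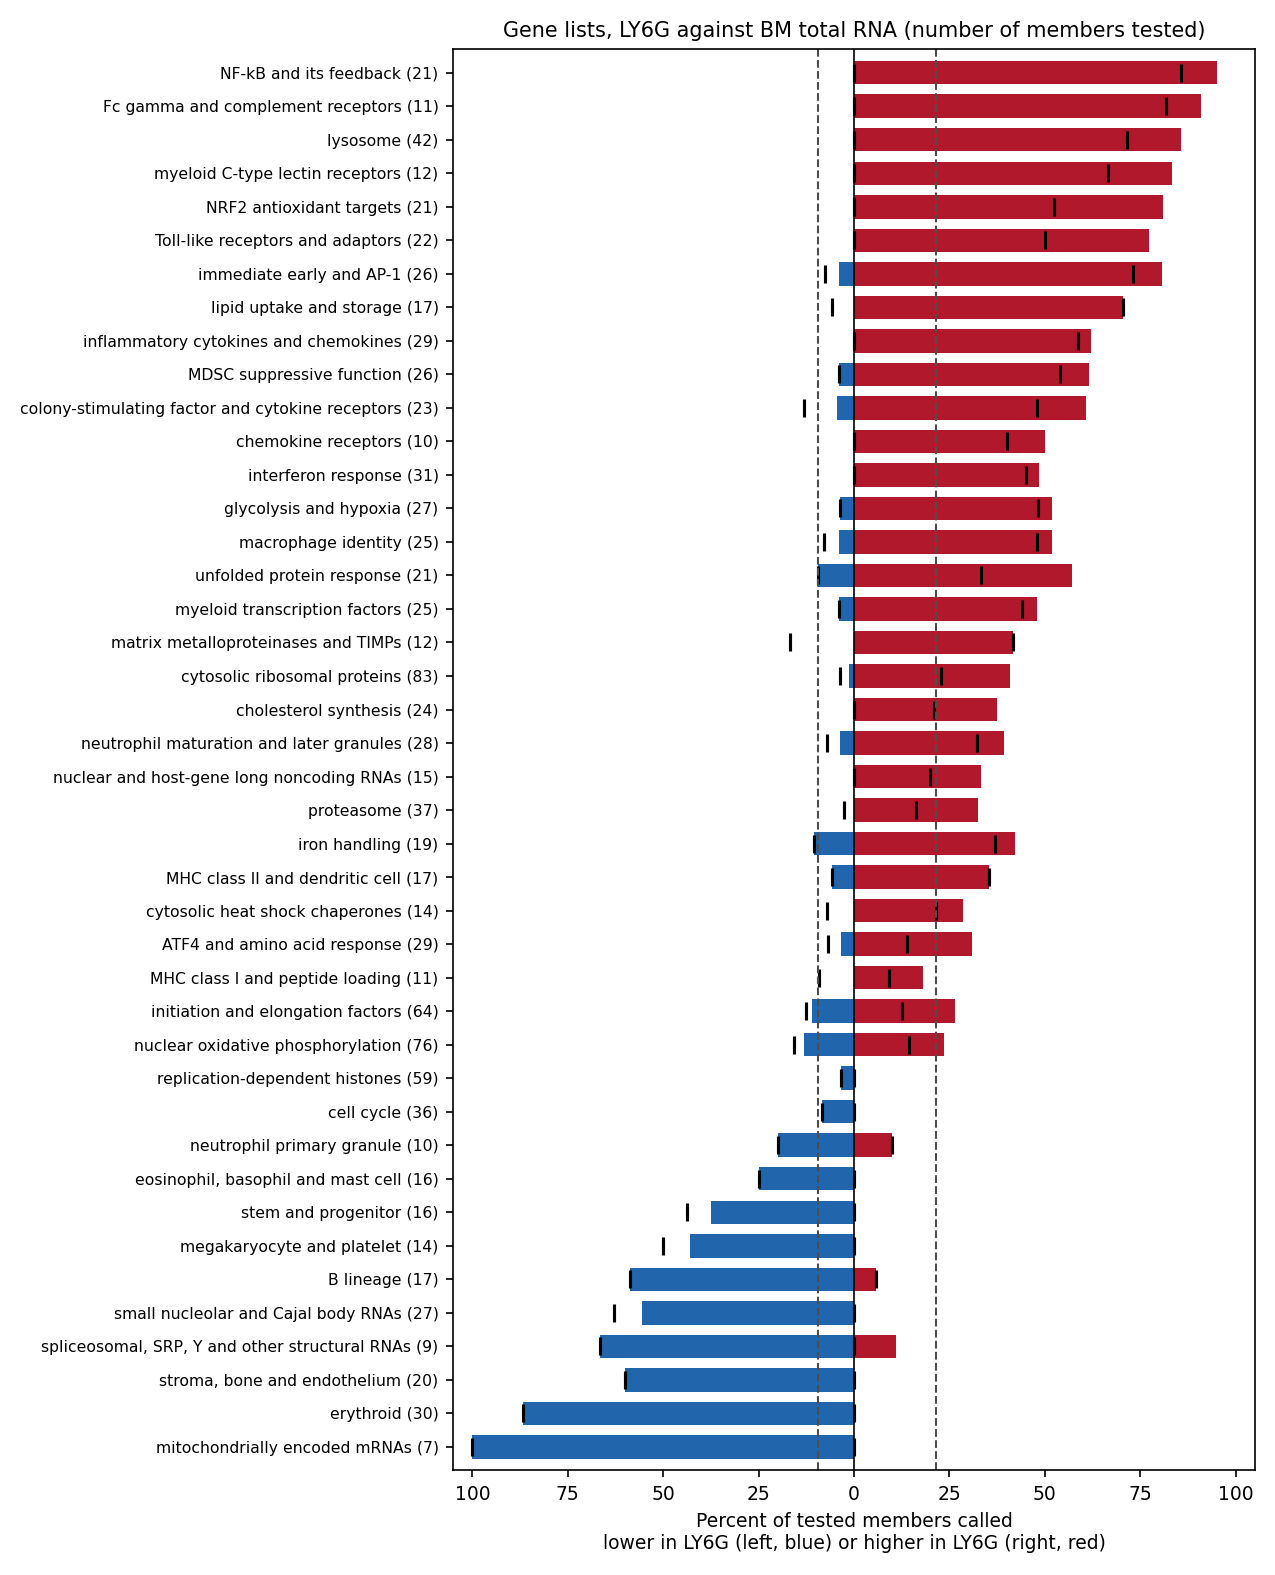
Percent of the tested members of 42 gene lists called higher (red, right) or lower (blue, left) in LY6G total RNA, with black marks for the protein-coding scaling and dashed lines at 21.5% and 9.39%, the shares over all genes tested. NF-kB, Fc receptor and lysosome genes stand at the top and erythroid and mitochondrially encoded genes at the bottom.

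Most red cell genes fell, although red cells had been lysed before RNA was taken from BM. Of 35 erythroid genes 30 could be tested, 26 fell and 0 rose under either scaling, a share of 86.7% against 9.39% of all genes, with a median of -8.97. Slc4a1 (chr11:102348824-102366203), the anion exchanger band 3 of the red cell membrane, had 1, 0 and 1 counts in LY6G against 42, 61 and 83 in BM. The pooled ratio of BM over LY6G was 13400.0 (95% exact interval 3657 to 111400.0). Dmtn, dematin, had 0.0111, 0.0159 and 0.0549 CPM in LY6G against 42.3, 39.3 and 33.1 CPM in BM, a log2 change of -10.34 ± 0.65 (adjusted p = 1.41e-09). The water channel gene Aqp1 had 2 counts over LY6G and 46.6, 29.5 and 47.5 CPM in BM. Among the largest falls of any protein-coding gene, Sowaha, Btnl10, Add2, which encodes beta adducin of the membrane skeleton, and the amino acid transporter gene Slc38a5 had 0 counts in LY6G and were at least 1633-fold, 1099-fold, 949.7-fold and 768-fold lower. Trim58, a ubiquitin ligase of late red cell precursors, and Tspan33, a tetraspanin, fell by 10.19 ± 0.90 and 10.1 ± 0.55 on the log2 scale. Klf1, the master transcription factor of red cells, had 0.0334, 0.0159 and 0 CPM in LY6G against 12.7, 19.6 and 16.5 CPM in BM, a change of -9.67 ± 0.64 (adjusted p = 9.11e-09). The lower group of Dmtn without LY6G replicate 6, Trim58 without LY6G replicate 6 and Klf1 without LY6G replicate 2 held at most 3 counts.

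The first step of heme synthesis is done by a pair of paralogs that went opposite ways. Alas2, the red cell form of its first enzyme, had 0.0223, 0 and 0.0961 CPM in LY6G against 14.8, 24.6 and 35.1 CPM in BM, a log2 change of -9.19 ± 0.90 (adjusted p = 4.78e-07), whereas the housekeeping form Alas1 rose by 4.17 ± 0.51. The GATA motif AGATAA, which red cell factors bind, stood in 9 of 21 erythroid promoters (42.9%) and in 8.08% of all. The CACCC box CCACACCC, the kind of site that Klf1 binds, stood in 1 of the 21 (4.76%) and in 4.67% of all. The GATA match of Alas2 lies 80 bases before its start on the plus strand at chrX:150547291-150547376. That of Kel, the Kell blood group protein, with 0 LY6G counts and 1, 10 and 3 BM counts, lies 50 bases before its start on the minus strand at chr6:41704336-41704421. Capitals mark the matches, and that of Alas2 reads on the opposite strand. No more than 3 counts remained in the lower group for Alas2 without LY6G replicate 6.
Alas2: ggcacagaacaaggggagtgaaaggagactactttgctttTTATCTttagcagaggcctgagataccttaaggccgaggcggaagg
Kel: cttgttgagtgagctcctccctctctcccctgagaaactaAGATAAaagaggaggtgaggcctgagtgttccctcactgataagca

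Most of the bone and stromal genes that could be tested were lower in LY6G, and Col1a1 held more counts than any other nuclear protein-coding gene in BM apart from Lars2, which is set here with the ribosomal RNA-like genes. Of 30 stromal, bone and endothelial genes 20 could be tested, 12 fell and 0 rose, with a median of -4.03. Col1a1 (chr11:94936224-94953042), a chain of type I collagen, had 1.41, 0.65 and 1.03 CPM in LY6G against 2052, 5133 and 2709 CPM in BM, a log2 change of -11.63 ± 1.15 (adjusted p = 1.46e-06). Its partner chain Col1a2 had 0.223, 0.0476 and 0.535 CPM in LY6G against 603, 1629 and 983 CPM in BM, a change of -11.94 ± 1.73 (adjusted p = 0.000126). Cxcl12, the chemokine that holds stem cells and neutrophils in marrow, had 0.0111, 0 and 0.0549 CPM in LY6G against 21.2, 24.6 and 4.13 CPM in BM and fell by 9.41 ± 0.93 (adjusted p = 4.81e-07). Sparc, a bone matrix protein, fell by 8.66 ± 0.81 and Col6a1, a chain of collagen VI, by 9.53 ± 0.74. The other 8 did not pass the test. Among them Col5a1, a chain of collagen V, had 13.6, 26 and 6.25 CPM in LY6G and 8.47, 40.9 and 41.3 CPM in BM (adjusted p = 0.226), and its groups overlapped. Mmp13, a collagenase of bone, had 12.6, 10.5 and 19.2 CPM in LY6G and 0 BM counts (adjusted p = 0.0556). When 1 library was omitted, log2 differences were -12.84 for Col1a2 without LY6G replicate 6. Counts of the lower group came to 3 or less for Cxcl12 without LY6G replicate 6.

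Genes of platelet precursors fell in part. Of 18 megakaryocyte genes 14 could be tested, 6 fell and 0 rose (7 lower under the protein-coding scaling). Itga2b, the platelet integrin chain, had 1.57, 0.809 and 3.46 CPM in LY6G against 48.7, 70.4 and 74.4 CPM in BM and changed by -5.05 ± 0.79 (adjusted p = 0.000126). Gp5, a platelet glycoprotein, changed by -7.78 ± 0.78 and Tubb1, the platelet tubulin, by -5.57 ± 0.55. Pf4, platelet factor 4, had 41.3, 39.2 and 80.6 CPM in LY6G against 19.1, 0 and 20.7 CPM in BM and was not called (adjusted p = 0.247). It made most of the megakaryocyte marker sum of LY6G, which was 52.0, 46.6 and 89.9 CPM, against 69.9, 80.2 and 136 CPM in BM. Omitting a single library gave log2 differences of -5.73 for Itga2b without LY6G replicate 6 and -8.49 for Gp5 without LY6G replicate 6.

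Some lymphoid, granulocyte and progenitor genes were lower too. Of 17 B lineage genes tested, of 21 listed, 10 fell and 1 rose. Ebf1, the factor that commits B cells, had 0.0556, 0 and 0.178 CPM in LY6G against 33.9, 14.7 and 10.3 CPM in BM (log2 -7.89 ± 1.16, adjusted p = 6.76e-05). The mu heavy chain gene Ighm changed by -4.12 ± 0.66. The 1 gene that rose was Il7r, the interleukin-7 receptor, with 8.64, 8.66 and 12.7 CPM in LY6G, 0 BM counts, and a bound of 5.2-fold, and its call was lost without BM replicate 1, 2 or 3 (adjusted p 0.0534 to 0.0698). Of 16 eosinophil, basophil and mast cell genes 4 fell and 0 rose. Prg2, the major basic protein of eosinophils, had 0.879, 1.22 and 2.13 CPM in LY6G against 150.3, 94.9 and 78.5 CPM in BM (log2 -6.26 ± 1.11, adjusted p = 0.000555). The basophil protease gene Prss34 changed by -5.14 ± 0.97 and Alox15, the lipoxygenase of eosinophils, by -4.97 ± 0.81. Of 16 stem and progenitor genes 6 fell and 0 rose (7 and 0 under the protein-coding scaling). Myb, needed for progenitors to divide, had 1.09, 2.01 and 1.77 CPM in LY6G against 29.6, 27.8 and 33.1 CPM in BM and changed by -4.21 ± 0.79 (adjusted p = 0.000587). T cell and natural killer genes were mostly too low to test, with 4 of 18 tested and 1 lower, Lck, the kinase of the T cell receptor, at 0.085 ± 0.077 CPM in LY6G and 4.97 ± 1.37 CPM in BM. With 1 library left out, the log2 difference was -9.13 for Ebf1 without LY6G replicate 6 and -4.14 for Alox15 without BM replicate 1.

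Proliferation genes were lower for few members. Of 36 cell cycle genes 3 fell, which is 8.33% and near the 9.39% of all genes, and 0 rose. Mki67, the antigen Ki-67 of dividing cells, had 51.4, 80.6 and 23.2 CPM in LY6G against 248, 509 and 429.8 CPM in BM and changed by -2.94 ± 0.60 (adjusted p = 0.00111). The replication helicase genes Mcm2 and Mcm3 changed by -2.42 ± 0.69 and -1.86 ± 0.66, and the call of Mcm3 was lost without LY6G replicate 2 or 6 or BM replicate 1, 2 or 3 (adjusted p 0.059 to 0.117). LY6G replicate 6 was the lowest of its group for all 3 genes. Of 59 histone genes tested 2 fell, Hist1h1d (log2 -2.63 ± 0.75, adjusted p = 0.0129) and Hist3h2ba (log2 -4.41 ± 1.41, adjusted p = 0.0221). The Hist3h2ba value rests on 8, 15 and 3 counts in LY6G against 0, 0 and 4 in BM, and its call was lost without BM replicate 3 (adjusted p = 0.748). In polysomal RNA, where BM was deeper, 13 of the 36 cell cycle genes and 10 of the 59 histone genes fell. The share over all genes was 15.3% there, near that of the histone genes, of which 2 rose. The log2 difference moved most when 1 library was left out, to -3.01 for Mcm2 without LY6G replicate 3. The lower group of Hist3h2ba without BM replicate 3 held at most 3 counts.

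Many small structural RNAs were lower in LY6G. Of 129 small nucleolar and Cajal body RNAs 27 could be tested, 15 fell and 0 rose (17 and 0 under the protein-coding scaling), with a median of -4.15. Scarna8, which guides the modification of splicing RNAs, had 2, 0 and 0 counts in LY6G against 15, 96 and 49 in BM, a ratio of BM over LY6G of 11520.0 (95% exact interval 3139 to 95980.0). Snora57, which guides pseudouridylation of ribosomal RNA, had 0.178, 0.507 and 0.165 CPM in LY6G against 108, 313 and 194 CPM in BM, a log2 change of -9.51 ± 1.21 (adjusted p = 3.04e-05). Snora31 changed by -6.29 ± 0.52. Of 17 listed spliceosomal, signal recognition particle and other structural RNAs 9 could be tested, 6 fell and 1 rose (6 and 0 under the protein-coding scaling). Rn7s1 and Rn7s2, near copies of the RNA of the signal recognition particle, share reads to an unknown extent. Rn7s1 had 0.267, 1.05 and 0.192 CPM in LY6G against 74.1, 403 and 777 CPM in BM, and Rn7s2 changed by -8.25 ± 1.67 (adjusted p = 0.00182). The minor spliceosomal RNA Rnu11 changed by -7.52 ± 0.72 (adjusted p = 4.42e-07). The 1 that rose was Rn7sk, the RNA that holds an elongation factor of transcription inactive, with 1239, 2256 and 558 CPM in LY6G against 157, 65.5 and 97.1 CPM in BM. Its rise of 3.67 ± 1.14 (adjusted p = 0.0233) was lost under the protein-coding scaling (adjusted p = 0.0551) and was lost without LY6G replicate 3 or BM replicate 2 or 3 (adjusted p 0.0686 to 0.0823). BM libraries also held more ribosomal RNA, as given above, and the part of rRNA depletion in these differences was not tested. Leaving out 1 library gave a log2 difference of -10.18 for Snora57 without LY6G replicate 3 and -9.26 for Rn7s2 without LY6G replicate 3.

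Messages made inside mitochondria were lower for every member that could be tested. These were 7 of 13 and all 7 fell, with a median of -6.98. Members not tested held almost no counts in either group. Over LY6G and BM, mt-Co2 had 7 and 0 counts, mt-Co3 2 and 0 and mt-Atp6 0 and 4, beside 38823 and 3514 of mt-Co1. Whether their reads were lost in counting was not tested. mt-Nd5, a subunit of respiratory complex I, had 6.72, 6.47 and 5.87 CPM in LY6G against 2297, 4100.1 and 2678 CPM in BM and changed by -8.89 ± 0.57 (adjusted p = 1.45e-09). The antisense-strand gene mt-Nd6 overlaps its end. It stood at 1.17, 6.4 and 5.82 CPM in LY6G against 2231, 4077 and 3035 CPM in BM (log2 -9.45 ± 1.08). No source used here gives the strand setting of the counting, so the pair cannot be fully told apart. The smallest change of the 7 was that of mt-Co1, a subunit of cytochrome oxidase, with 149, 225 and 154 CPM in LY6G against 1499, 3161 and 1808 CPM in BM (log2 -3.61 ± 0.56). Mitochondrial ribosomal RNA was also high in BM, and the relation of the mRNA levels to it was not tested. Nuclear genes of the same respiratory chain did not move together. Of 82 listed 76 could be tested, 18 rose and 10 fell (11 and 12 under the protein-coding scaling, and 5 lower without LY6G replicate 6), shares of 23.7% and 13.2%, near those of all genes. Sdhd, the membrane anchor of complex II, had 20.2, 22.8 and 16.6 CPM in LY6G and 3 BM counts, a ratio of 10.3 (95% exact interval 3.53 to 50.1), while Sdha, the catalytic subunit of the same complex, had 24.4, 25.1 and 19 CPM in LY6G against 33.9, 62.2 and 66.1 CPM in BM and fell by 1.25 ± 0.29 (adjusted p = 0.00265).

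Genes of the translation machinery included members that moved either way. Of 83 ribosomal protein genes tested 34 rose and 1 fell (19 and 3 under the protein-coding scaling, and 22 higher without LY6G replicate 3 and 22 without BM replicate 3), with a median of 1.34. Rpl10 had 59.7, 66.6 and 31.4 CPM in LY6G against 6.35, 6.55 and 0 CPM in BM and rose by 3.57 ± 0.58 (adjusted p = 0.000101). Rpl13 rose by 2.97 ± 0.59 and Rpl23 by 2.95 ± 0.58. Ribosomal protein genes have many processed copies, so their counts are uncertain. Of 64 initiation and elongation factor genes 17 rose and 7 fell (8 and 8 under the protein-coding scaling, and 7 higher without BM replicate 2), with a median of 0.44. These are shares of 26.6% and 10.9%, near those of all genes. Eif3a, the largest subunit of the scaffold factor eIF3, had 44.4, 50.8 and 39.6 CPM in LY6G against 184, 213 and 140.5 CPM in BM and fell by 2.0 ± 0.30 (adjusted p = 4.83e-05). Another subunit gene, Eif3b, had 38.8, 42.3 and 29.7 CPM in LY6G against 119, 147 and 176 CPM in BM and fell by 1.99 ± 0.32 (adjusted p = 8.56e-05). In contrast Eif4g2, a scaffold that serves alternative initiation, had 214, 214 and 201 CPM in LY6G against 52.9, 57.3 and 37.2 CPM in BM and rose by 2.09 ± 0.37 (adjusted p = 0.000234). Of 37 proteasome genes 12 rose and 0 fell (6 and 1 under the protein-coding scaling, and 7 higher without LY6G replicate 3 and 7 without BM replicate 3), among them Psma3, with 17, 15 and 13.4 CPM in LY6G, 0 BM counts, and a bound of 7.91-fold. When 1 library was omitted, log2 differences were 2.96 for Rpl10 without BM replicate 3. At most 3 counts were left in the lower group for Rpl13 without BM replicate 1 and Rpl23 without BM replicate 1.

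Long noncoding RNAs of the nucleus gave 5 higher and 0 lower of 15 tested (3 under the protein-coding scaling, 3 higher without BM replicate 2 and 3 without BM replicate 3). Neat1, the scaffold of nuclear paraspeckles, had 255, 135 and 258 CPM in LY6G against 25.4, 39.3 and 55.8 CPM in BM and rose by 2.43 ± 0.52 (adjusted p = 0.00143). Lncpint, a p53-induced transcript, had 14.8, 13.3 and 22.1 CPM in LY6G and 1 BM count, a ratio of 26.2 (95% exact interval 4.71 to 1037). Mir22hg, the host of a microRNA, had 12.7, 7.55 and 21.1 CPM and a bound of 7.21-fold.

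Polysomal libraries of the same kinds of cells gave a deeper view of BM, at 274914 to 598151 nuclear protein-coding counts per library. They carry the same replicate numbers as the total libraries and may share their cells, so they are not independent samples. There 3137 genes were called higher in LY6G (22.1%) and 2176 lower (15.3%). Of the 3043 genes higher in total RNA 1977 were also higher in polysomal RNA, which is 65.0% of the first list and 63.0% of the second. Of the 1331 lower genes 1055 were also lower, which is 79.3% and 48.5%. Opposite calls came to 9 among the higher genes and 1 among the lower. Of the 852 higher genes that had 0 counts in BM total RNA, 536 were called higher in polysomal RNA. Csf1r, with 166 counts in BM polysomal RNA, rose there by 4.14 ± 0.43 (adjusted p = 6.7e-07) and Mmp8, with 130 counts, by 3.43 ± 0.50 (adjusted p = 2.78e-05). Col1a1 changed by -11.59 ± 1.15. Neat1, which stays in the nucleus, did not differ there beyond the threshold (log2 0.17 ± 0.47, adjusted p = 0.788). S100a9, not called in total RNA, was lower in LY6G polysomal RNA (log2 -1.60 ± 0.58, adjusted p = 0.0353). The test of the difference between fractions passed for neither gene (adjusted p = 0.149 and 0.398).

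**Figure D5:**
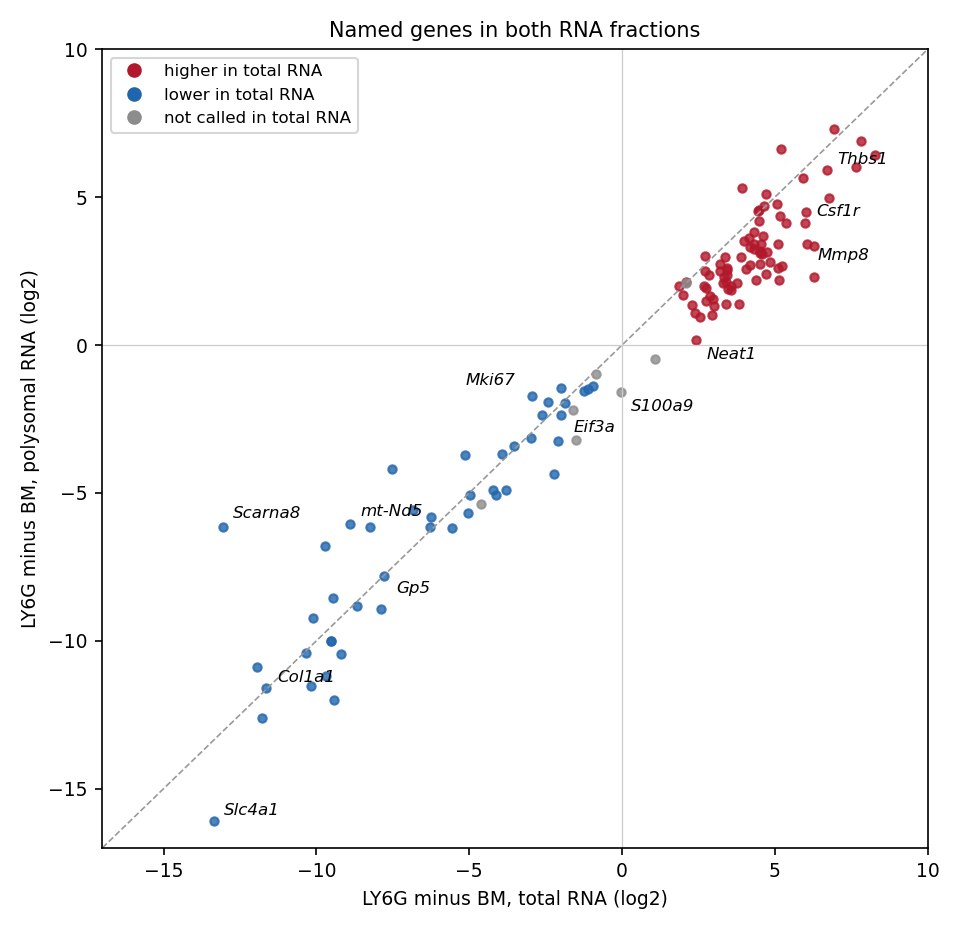
LY6G minus BM log2 difference of 129 named genes in total RNA (horizontal) and polysomal RNA (vertical), with the line of equal change dashed, for genes with counts in LY6G total and both BM fractions. Most genes keep their sign in both fractions, while Neat1 is near 0 and S100a9 below 0 in polysomal RNA.

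The second sorted population shares the BM libraries as its control, so agreement between the sorted populations against BM is not independent. Tested directly, LY6G minus LY6C total RNA gave 0 called genes by edgeR, with 565 genes at an unadjusted p under 0.05. Limma gave 1 call, DESeq2 0, and edgeR 76 when no filter on low counts was used. With a block for the replicate numbers, which both sorted populations share, edgeR called 0 genes and 1432 had an unadjusted p under 0.05. The differences described above were thus not shown to belong to LY6G cells rather than to both sorted populations.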

How the data were processed

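The authors deposited 1 table of whole-number counts per gene for 18 libraries of ribosome-depleted RNA. RNA was extracted from cells lysed in polysome buffer, and the kit was stranded and randomly primed, per the labels' protocols. STAR 2.5.2a, DESeq and DESeq2 and the build GRCm38/mm10 are named in the submitters' processing notes. The sources used here do not give the counting program, its strand setting or the annotation. Names of genes came from GENCODE M21, which matched 54809 of 54838 identifiers, and promoter stretches from RefSeq on GRCm38.p6. In all 11 motifs were searched, and whether a motif went with the calls of its list was not tested. Those not given above were PU.1 (5.88% of macrophage identity promoters, 4.15% of all) and NF-kB (4.55% of cytokine promoters, 0.469% of all). Also searched were E2F (16.7% of cell cycle promoters, 1.12% of all) and CCACG (83.3% of unfolded protein response promoters, 51.3% of all). Counts were scaled by TMM and fitted with edgeR 4.0.16 in R 4.3.3 (quasi-likelihood, robust, 1 mean per group, all 18 libraries). The 14181 genes that pass filterByExpr at a minimum count of 10 were tested, with Benjamini-Hochberg adjustment over all of them at 0.05. SE is the log2 difference over the root of its F value.

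The 44 gene lists and the genes described were chosen with earlier results of these data known. Genes named follow a rule of size and adjusted p: 12 largest rises with at least 10 BM counts, 8 largest bounds with 0 BM counts, 12 largest falls, 4 other genes each way, and the 4 members of lowest p per list and direction. These needed a call under both scalings, a mean of 10 CPM in the higher group, and no overlap between the LY6G and BM libraries. For genes named so, separate groups are thus a condition and not a result. Sort antigens and cell type markers were added, as were uncalled list members given as values. Outside the rule, Cd274, Cebpa, Ctsa, Dusp1, Epor, Erap1, Hist3h2ba, Il7r, Kel, Lck, Mmp14, Ptgs2, Rn7sk, Steap3, Zbtb46 and mt-Co1 were chosen after their values were seen. A few other genes are not reported here. Genes overlapping near-identical copies or antisense genes may share reads.

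Replicate numbers 2 and 3 occur in both groups, but the labels tie no marrow to a culture, so the samples were not paired. Deviations of same-numbered samples had correlations of 0.001 and -0.009 over all genes tested. Over the 1568 genes with at least 30 BM counts they were -0.019 and 0.027. BM counts were few, so these values cannot show that a pairing is absent. The 13 kinds of alternatives included other scalings, filters, a replicate block, thinning, each replicate left out, limma 3.58.1 and DESeq2 1.42.0. The fit was also run on counts simulated from a single mean profile shared by all groups, with some genes changed in LY6G. That simulation lacked the different make-up of BM libraries, and nothing above rests on it. Intervals and bounds at 95% confidence cover counting error only.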

Additional observations from a re-analysis of the deposited data

Results flagged for a closer look

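3 genes of the text differed between fractions by edgeR's test of that difference itself. The LY6G minus BM log2 difference of mt-Nd5 was -8.89 ± 0.57 in total RNA and -6.05 ± 0.51 in polysomal RNA, a gap of -2.85 ± 0.59 (adjusted p = 0.0345). In polysomal RNA it had 4.69, 1.7 and 1.14 CPM in LY6G against 123, 185 and 191 CPM in BM, so every LY6G library was below every BM library in both fractions. Tnfrsf14, a receptor that tunes lymphocyte responses, had 5.94, 7.01 and 16.7 CPM in LY6G against 389.6, 1129 and 645 CPM in BM. Its difference was -6.19 ± 0.54 in total RNA and -2.19 ± 0.46 in polysomal RNA, a gap of -4.0 ± 0.64 (adjusted p = 0.0131). Optn, an autophagy adaptor, had 3.67, 3.57 and 3.76 CPM in LY6G against 214, 715 and 581 CPM in BM. Its difference was -7.1 ± 0.57 in total RNA and -3.70 ± 0.49 in polysomal RNA, a gap of -3.4 ± 0.64 (adjusted p = 0.0213). Every LY6G library was below every BM library in both fractions for these 2 genes as well. They were looked up because they are among the 10 nuclear protein-coding genes with the most BM total counts. That choice favours a low LY6G minus BM difference in total RNA and so a negative gap. Over all genes tested the fractions differed for 59, of which 53 were called in total RNA and 37 had 3 or fewer BM total counts.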

How the results depend on the processing

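No gene called here was called the opposite way under any of the alternatives. Scaled by nuclear protein-coding counts, 1817 genes were higher, and the share of calls that were higher was 51.2%, against 69.6% under TMM. Restricted to genes with at least 10 BM counts, 993 were higher and 961 lower, so 50.8% of calls were higher. In that fit 1513 were called the same way in both fractions, and the fractions differed for 26. Thinned to 54944 counts, 724 were higher and 622 lower, 1001 were called in both fractions and 0 differed between them, with 2608 genes left to test. With no filter 3139 were higher and 2267 lower, 76 differed between LY6G and LY6C and 105 between fractions, over 28211 genes. By limma 3211 were higher and 3427 lower, so 48.4% of calls were higher, and 1 gene differed between LY6G and LY6C. The cause was not tested. Fitted alone, the 6 compared libraries gave 2247 higher and 1021 lower, over 12638 genes. Genes that differed between fractions came to 39 with median-ratio size factors and 27 with nuclear protein-coding library sizes. They came to 19 with the compared libraries alone and 203 by DESeq2, which gave no adjusted p for 1686 genes. With 1 replicate left out they came to 16 to 106, genes higher in LY6G to 2190 to 2739, lower to 1140 to 1312, and called in both fractions to 2542 to 2825. A replicate block gave 3198 higher and 1419 lower, 87 between fractions and 0 between LY6G and LY6C. Its numbers are not known to pair a culture with a marrow. LY6G and LY6C libraries share their numbers, as do total and polysomal libraries, so same-numbered samples may be related there. The main fit leaves that out. Under that block Arg1 (adjusted p = 0.0440), Hmox1 (3.96e-04), C1qa (0.0192), Apoe, Ly6c1 and Mmp13 were called. Signs turned for 4 genes, given with their ranges over fits that left out 1 replicate. S100a9, not called, had log2 differences of 0.028 with no filter, 0.113 with at least 10 BM counts, 0.404 under the block, 0.163 without LY6G replicate 6 and 0.000 by limma (-0.254 to 0.163). Ly6g had -0.171 without LY6G replicate 6 and -0.374 by limma (-0.171 to 2.045). Without BM replicate 3, which held all their BM counts, the fitted values of Ly6c1 and Hist3h2ba were 4.364 (-7.064 to 4.364) and 5.605 (-5.229 to 5.605). Of 170 called genes named, 154 kept their call in every alternative that tested them. Depth limits what BM can show: its floor of 3 counts was 1.91 CPM, against 0.0133 CPM in LY6G.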

Other observations

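The nuclear protein-coding genes with the most counts in BM total RNA were looked up after the values were seen. The 10 highest took 8.37% of such counts. After Col1a1 came Ptma, a small acidic nuclear protein of dividing cells, with 83.7, 102 and 23.6 CPM in LY6G against 1484, 1129 and 1049.6 CPM in BM (log2 -4.13 ± 0.50, adjusted p = 4.27e-06). Knl1, a kinetochore scaffold, had 5.6, 12.8 and 1.55 CPM in LY6G against 387, 1085 and 605 CPM in BM (log2 -6.7 ± 0.99, adjusted p = 0.000103). Every LY6G library was below every BM library for both genes. Choosing genes by high BM counts favours such a separation, so it is not a result of its own.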
